A study of Mus musculus with 29 samples.

Results

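Gene expression in the inflamed colon of mice with acute colitis was compared with that in mice after 2 cycles of colitis. Both states were induced with dextran sodium sulfate (DSS), a sulfated sugar polymer given in the drinking water that injures the lining of the colon. The comparison rests on 9 of the 29 arrays of the series, chosen by the labels alone: 4 arrays of acute colitis and 5 arrays of 2 cycles, each from a single female C57BL6J mouse. The mice with acute colitis had received 1 course of DSS for 7 days and were killed at its end, without recovery. The mice of the 2 cycles group had received 2 courses of 7 days, the second at a higher concentration than the first, each followed by 2 weeks of water without DSS. Animals entered the study at 6 weeks of age and were matched for age when killed. RNA came from a piece of the most infiltrated part of the distal colon, so each value is an average over mucosa, lymphoid tissue and muscle. The number of courses, the highest DSS concentration, the age at first exposure and the time since the last dose differ together between the groups. Their parts cannot be told apart. The 5 control mice, which drank water alone, and the 5 mice each of the 1 cycle and 3 cycles groups are used below only to place the levels. In whole tissue, fewer cells of a type and less RNA per cell cannot be told apart.

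DSS colitis begins as loss of the surface epithelium, through which luminal bacteria reach the tissue below. Epithelial cells and macrophages then release cytokines and chemokines that bring in neutrophils and monocytes, while proteases loosen the matrix. When DSS is withdrawn the crypts regrow, and repeated courses leave lymphocytes and plasma cells in the mucosa. Plasma cells of the colon secrete mainly dimeric IgA, which the J chain joins and the epithelium carries to the lumen.

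All values are log2 expression levels of single probe sets as deposited, so a difference of 1 is a 2-fold change. Values of single arrays are given in the order B2, B3, B4 and C3 for acute colitis and D4, D5, E2, E3 and E4 for 2 cycles, the names in the labels. The 29 arrays fall into 2 sets by a probe set for which no gene is listed, below 9.6 on some arrays (low) and above on the others (high). The labels do not say what divides the sets. B2, B3, D4 and D5 are low arrays, and B4, C3, E2, E3 and E4 are high arrays. All control and 1 cycle arrays are low and all 3 cycles arrays are high. The colon markers Vil1, Cdh17, Krt20 and Muc2 were at the 96.9th percentile of mean probe set level or higher, and on no list of squamous epithelium (22 genes measured), skeletal muscle (10), small intestine (11) or adipose tissue (9) was a gene called between acute colitis and 2 cycles. Of 8 exocrine pancreas genes 1 was called, Cela1, which was lower at 6.58 against 7.90 without overlap (2.51-fold, adjusted p = 4.42e-05). Controls were at 8.24. The posterior homeobox genes, which record position along the gut, did differ between acute arrays. Hoxb13 was at 6.05 and 6.57 on B2 and B3 but at 8.82 and 8.69 on B4 and C3, against 9.25, 9.94, 9.67, 9.61 and 9.66 after 2 cycles and 9.84 ± 0.40 (SD, n = 5) in controls. Hoxd13 was at 5.88, 6.36, 8.56 and 5.99 in acute colitis and between 7.38 and 8.61 after 2 cycles. The part of sampling position in the results below was not tested. The Hoxb13 difference was -3.28 within the low and -0.892 within the high arrays (-2.09 in all, adjusted p = 0.0149), and its call was lost without B2 or B3. Within-set values are given below beside some of the genes that separate B2 and B3 from B4 and C3.

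Of all probe sets of the table, 106 were higher in acute colitis than after 2 cycles (0.298%) and 279 were lower (0.786%), with an adjusted p under 0.05 and a fold above 2. The probe sets called higher carry 90 named genes, and those called lower carry 160 named genes other than immunoglobulins. The 279 called lower hold 39 probe sets of 1 gene, Hmcn1, and 31 with an immunoglobulin symbol, so they are not as many separate genes. The values of the 9 arrays did not overlap for 248 of the 279 called lower, but for only 35 of the 106 called higher. Over all probe sets, values did not overlap for 3.87% in the higher and 3.45% in the lower direction. By an adjusted p under 0.05 alone, 1703 of all probe sets were higher and 1598 were lower. The table held 21789 probe sets with 1 gene symbol, 1621 with several and 12101 with none. Small list counts by that p alone, given below, can lie near this background, and none was tested against it. The acute mice varied most in the genes called higher, with a median SD of 1.17 against 0.307 after 2 cycles. In 91 of these 106 probe sets B3 had the highest acute value, and in 87 B2 had the lowest. Without B3 the count called higher was 55, without B2 it was 219, and with only the 2 groups fitted it was 25. The count called lower was 256, 329 and 238 in the same fits. With array set as a covariate the counts were 104 and 274. All 385 kept their direction within the low and within the high arrays, which are the arrays on which they were chosen. Far fewer stayed called there, where 2 arrays stood against 2 or 3: of the 106, 13 within the low and 61 within the high arrays, and of the 279, 92 and 185. With only the 2 groups fitted 25 of the 106 and 235 of the 279 stayed called. A test of whether the difference itself differed between the array sets, chosen after the data were seen, passed for 7 of all probe sets at an adjusted p under 0.05.

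**Figure D1:**
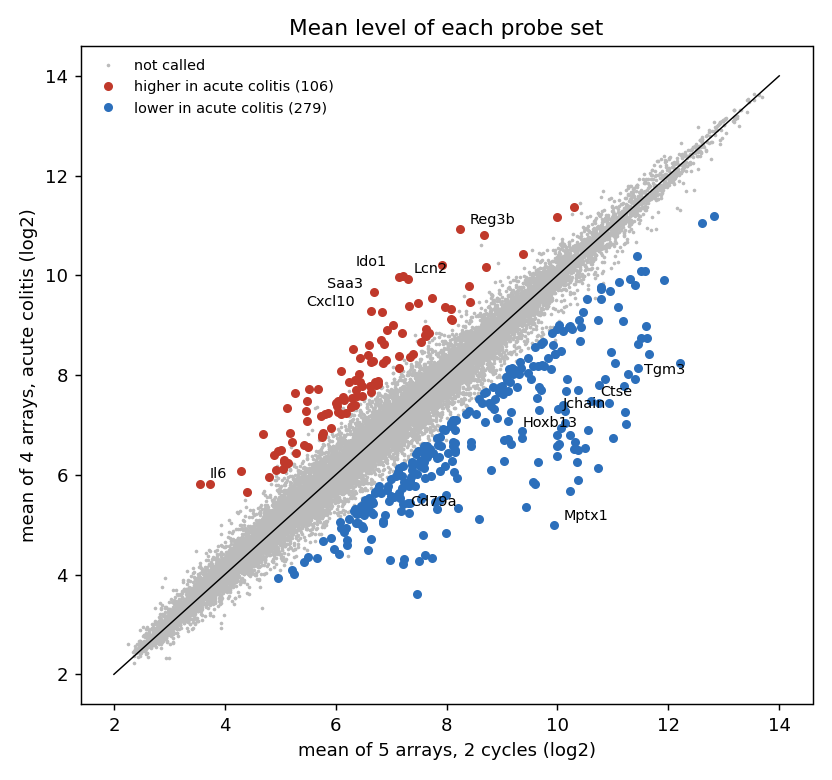
Mean log2 level of each probe set over the 5 arrays of 2 cycles (x axis) and the 4 arrays of acute colitis (y axis). Red points are the 106 called higher and blue points the 279 called lower in acute colitis, and the line marks equal levels; Mptx1 and Jchain lie far below it and Saa3 and Reg3b far above.

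The control arrays place these differences. Among the 106 called higher, 96 were also called as above controls in acute colitis (1.38% of all probe sets were), while 19 were called higher after 2 cycles than in controls (0.907% of all). Among the 279 called lower, 179 were below controls in acute colitis (1.4% of all) and 88 were above controls after 2 cycles, and 1 was below controls after 2 cycles (0.124% of all). These comparisons share the acute and 2 cycles arrays with the comparison that chose the probe sets, so the counts are a description. The called genes thus hold 3 patterns, which the next paragraphs take in turn: genes high in acute colitis, genes high after 2 cycles, and genes low in acute colitis.

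Acute-phase proteins bind lipids, iron and hemoglobin during inflammation, and antimicrobial lectins kill bacteria near the epithelium. Of 19 acute-phase and iron-withholding genes measured, 4 were higher in acute colitis and none was lower, with a median difference of 0.193 against 0.033 over all probe sets. Saa3, a serum amyloid made in inflamed tissue, was at 8.53, 11.49, 9.01 and 9.64 in acute colitis and at 8.10, 5.81, 6.81, 5.80 and 6.90 after 2 cycles. Every acute array lay above every 2 cycles array, and controls were at 5.24 ± 0.05 (SD, n = 5). The difference was 2.98 ± 0.52 (SE), a 7.90-fold change (adjusted p = 0.000417). Lcn2, which withholds bacterial siderophores, was at 8.97, 11.78, 9.52 and 9.64 against 7.99, 6.89, 7.53, 6.37 and 7.25, a 6.83-fold change (adjusted p = 0.000765). Haptoglobin (Hp), which binds free hemoglobin, was 3.09-fold higher (adjusted p = 0.00257), and Lrg1, a leucine-rich glycoprotein of acute inflammation, 6.12-fold higher (adjusted p = 0.00116). The Lrg1 difference was 1.38 within the low and 3.67 within the high arrays. The calls of Saa3 and Lrg1 were lost within the low arrays and that of Lcn2 within either array set.

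Among 25 antimicrobial genes, 2 were higher and 1 was lower in acute colitis. Reg3b, a bactericidal C-type lectin, was at 12.63, 12.89, 6.55 and 11.65 in acute colitis and at 8.10, 8.22, 7.78, 9.73 and 7.43 after 2 cycles. Array B4 lay below all 5 arrays of 2 cycles, and the difference was 2.68 ± 0.84 (SE, adjusted p = 0.0422), or 4.14 without B4. Its call was lost without B2, B3 or C3 and without any of D4, D5, E2 and E4. It was 4.60 within the low and 0.787 within the high arrays. Both groups were above controls, which were at 4.61 (adjusted p = 4.36e-06 for acute colitis and 0.00546 for 2 cycles). Nos2, the inducible nitric oxide synthase, was 3.53-fold higher (adjusted p = 0.0126), and its call was lost without B3 or B4, within the low arrays and with only the 2 groups fitted. The count of 2 antimicrobial genes called higher was 0 without B3 and 1 without B2, C3, D4, D5, E2 or E4. Reg4, a lectin of colonic secretory cells, went the other way and was lower by 2.09 ± 0.52 on the log2 scale (adjusted p = 0.0103). Its 3 lower acute arrays lay between 7.87 and 8.80, B3 was at 11.41, and the 2 cycles arrays spanned 10.75 to 11.56. The Reg4 call was lost with only the 2 groups fitted and within the low arrays.

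Neutrophils are the first leukocytes to enter the injured colon. Of 22 neutrophil genes measured, 8 were higher in acute colitis and 1 was lower, with a median difference of 1.11. Clec4e, a receptor for dead cells and mycobacterial lipid, was at 4.81, 9.88, 6.87 and 7.77 in acute colitis and between 5.07 and 5.17 on all 5 arrays of 2 cycles. B3, B4 and C3 were thus above the 2 cycles arrays and B2 was below them (4.61-fold, adjusted p = 0.0102). Retnlg, a resistin-like protein of granulocytes, was at 6.52, 9.69, 6.52 and 7.17 against 5.75, 5.51, 5.17, 5.60 and 5.37, without overlap (3.98-fold, adjusted p = 0.00111). Mmp8, the neutrophil collagenase, was 3.42-fold higher (adjusted p = 0.00551). The defining markers gave a mixed picture. S100a8, a calprotectin subunit, was 3.03-fold higher (adjusted p = 0.0286), while S100a9 (difference 1.44, adjusted p = 0.0772), Csf3r (0.861, 0.0646) and Cxcr2 (1.14, 0.112) did not pass. The member that was lower was Cd177, named here after its values were seen, which neutrophils carry but which stood at 10.46 ± 0.38 after 2 cycles (SD, n = 5), 9.27 ± 0.98 in acute colitis (n = 4) and 8.47 ± 0.75 in controls (n = 5). The neutrophil count depended on single mice: it was 1 without B3, 5 without C3, 13 without B2 and 0 with only the 2 groups fitted. The calls of Clec4e and Mmp8 were lost without B3, at differences of 1.36 and 0.97. Averaged over the list, the acute arrays were at 5.63, 7.86, 6.42 and 6.71 and the 2 cycles arrays between 5.71 and 6.02.

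Of 25 monocyte and macrophage genes, 2 were higher, with a median difference of 0.356. Chil3, a chitinase-like protein of activated macrophages, was at 4.58, 8.59, 5.19 and 4.91 against 3.50, 3.84, 3.52, 3.93 and 3.85, without overlap. The difference was 2.09 ± 0.44 (SE, adjusted p = 0.00242), and 1.17 without B3, where it still passed, but the call was lost with only the 2 groups fitted. Fcgr4, an activating receptor for IgG, was 2.29-fold higher (adjusted p = 0.0306). Its difference of 1.19 was 0.646 without B3, and its call was lost in 11 of the 21 other fits, among them those without B3, B4, D4, D5, E3 or E4. The list count of 2 was 1 without any single one of these 6 arrays, 6 without B2 and 0 with only the 2 groups fitted.

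Chemokines direct leukocytes out of the blood. Among 15 CXC chemokines 4 were higher in acute colitis, and among 18 CC chemokines 3 were higher and 1 was lower. Cxcl10, which attracts activated T cells through CXCR3, was at 7.03, 11.45, 9.95 and 8.72 in acute colitis and at 6.52, 6.35, 7.40, 6.15 and 6.76 after 2 cycles. Only B2 fell within the range of the 2 cycles arrays (6.27-fold, adjusted p = 0.00173). Its cluster neighbours Cxcl9 and Cxcl11, which share that receptor, were 4.38-fold (adjusted p = 0.0086) and 2.15-fold (adjusted p = 0.00117) higher. Cxcl5, an attractant of neutrophils, was 4.63-fold higher (adjusted p = 0.0152). Ccl2 and Ccl7, which attract monocytes, were 3.73-fold (adjusted p = 0.00448) and 2.53-fold (adjusted p = 0.0261) higher. Ccl6, a macrophage chemokine, was lower, at 10.28, 9.49, 8.77 and 9.6 against 10.43, 10.96, 10.98, 10.55 and 10.98 (adjusted p = 8.09e-05). Without B3 the counts called higher were 1 CXC and 1 CC chemokine, without B4 they were 2 and 1, and without B2 they were 6 and 5. With only the 2 groups fitted both were 0. The calls of Cxcl9, Cxcl5 and Ccl7 were lost without B3, where their differences were 1.59, 1.63 and 0.608.

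Of 34 cytokines measured 5 were higher (Il6, Il11, Ifng, Il33 and Tnf) and none was lower. Il6, which drives the acute-phase response, was at 3.74, 8.91, 5.75 and 4.91 in acute colitis and between 3.38 and 3.84 on the 5 arrays of 2 cycles. The 2 cycles mean of 3.56 was close to the control mean of 3.55, and the acute difference was 2.26 ± 0.51 (SE, adjusted p = 0.00478). Il11, a cytokine of stromal cells that signals through the same shared receptor chain, was at 5.91, 8.81, 7.87 and 6.52 against 5.76, 5.07, 5.43, 5.59 and 5.45, without overlap (3.53-fold, adjusted p = 0.000846). Ifng, the main product of type 1 lymphocytes, was 2.70-fold higher, with B3 at 9.15 and the other 3 acute arrays between 5.35 and 6.52 (adjusted p = 0.023). Without B3 its difference of 1.44 was 0.602 and its call was lost. The count of 5 cytokines was 2 without B3, 7 without B2 and 0 with only the 2 groups fitted. Il1b, at 8.81 ± 1.68 (SD, n = 4) against 7.43 ± 0.26 (n = 5), did not pass (adjusted p = 0.0974). Among 22 cytokine receptors and feedback genes 1 was higher: Socs3, which STAT3 induces and which dampens IL-6 signalling (2.44-fold, adjusted p = 0.00262). A second Socs3 probe set differed by 0.124 and did not pass (adjusted p = 0.629). The Socs3 call was lost with only the 2 groups fitted and within the low arrays. Without B2 3 genes of the receptor and feedback list were called.

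Interferon gamma induces enzymes and GTPases that act on intracellular pathogens. Of 20 interferon gamma response genes measured 6 were higher, none was lower, and the median difference was 0.775. Ido1, which degrades tryptophan, was at 8.70, 10.48, 10.45 and 10.24 in acute colitis and at 5.93, 7.45, 8.51, 6.88 and 6.97 after 2 cycles. The groups did not overlap, and the 2 cycles mean of 7.15 was itself above the control mean of 4.72 (adjusted p = 0.00239). The acute mean was 7.04-fold above that of 2 cycles (adjusted p = 0.000586). Gbp5 and Iigp1, both interferon-induced GTPases, were 3.95-fold (adjusted p = 0.00454) and 3.93-fold (adjusted p = 0.00615) higher. The count of 6 was 4 without B3, 11 without B2 and 0 at its lowest among the other fits. The calls of Gbp5 and Iigp1 were lost with only the 2 groups fitted and within the low arrays. None of 20 type I interferon response genes was called in either direction, and their median difference was 0.0996. At an adjusted p under 0.05 alone 1 of them was higher.

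Promoters of 4 genes called higher, picked by hand, are shown because transcription factors activated by these cytokines bind short motifs there. The sequences are RefSeq promoter windows of build GRCm38.p6, given from 250 bases before the start to the last base before it, 5′ to 3′ on the strand of the gene. Capitals mark matches to an NF-κB motif (GGGA and TTCC with any 2 bases between), a STAT motif (TTCNNNGAA, N being any base) or an interferon response motif (GAAA and GAAA again with any 2 bases between). Both strands were searched.
Cxcl10 (chr5:92348890-92349139, minus strand): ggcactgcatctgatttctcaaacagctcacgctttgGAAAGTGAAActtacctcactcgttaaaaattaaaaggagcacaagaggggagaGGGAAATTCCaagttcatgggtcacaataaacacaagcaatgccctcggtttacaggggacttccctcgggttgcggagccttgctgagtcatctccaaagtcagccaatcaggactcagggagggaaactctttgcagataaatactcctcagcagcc
Il6 (chr5:30012864-30013113, plus strand): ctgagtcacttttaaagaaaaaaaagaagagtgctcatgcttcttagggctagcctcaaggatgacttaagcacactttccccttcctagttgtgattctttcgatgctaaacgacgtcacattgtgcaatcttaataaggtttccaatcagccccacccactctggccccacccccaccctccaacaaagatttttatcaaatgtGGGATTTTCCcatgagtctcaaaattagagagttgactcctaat
Socs3 (chr11:117969367-117969616, minus strand): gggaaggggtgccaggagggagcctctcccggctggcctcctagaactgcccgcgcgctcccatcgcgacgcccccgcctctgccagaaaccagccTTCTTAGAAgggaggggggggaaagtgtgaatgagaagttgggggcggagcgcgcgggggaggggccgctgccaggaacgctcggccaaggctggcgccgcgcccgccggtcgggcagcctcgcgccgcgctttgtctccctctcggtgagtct
Saa3 (chr7:46715677-46715926, minus strand): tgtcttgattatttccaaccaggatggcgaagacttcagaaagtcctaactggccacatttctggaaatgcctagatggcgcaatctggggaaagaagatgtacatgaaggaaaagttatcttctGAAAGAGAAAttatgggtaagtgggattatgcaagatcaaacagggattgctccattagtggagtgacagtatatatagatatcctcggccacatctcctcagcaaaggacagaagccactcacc
In Cxcl10 the interferon response motif lay 213 to 204 bases and the NF-κB motif 159 to 150 bases before the start. In Il6 the NF-κB motif lay 44 to 35 bases before it, in Socs3 the STAT motif 154 to 146 bases, and in Saa3 the interferon response motif 125 to 116 bases. Of the 90 genes called higher 67 have a promoter window in the table, from 250 bases before to 50 after the start. The NF-κB motif was in 4 of these (6.0%) against 1.6% of all 27025 genes with a window. The STAT motif was in 12 (17.9% against 9.6%) and the interferon response motif in 10 (14.9% against 4.0%). Among 117 of the genes called lower the shares were 0.9%, 9.4% and 5.1%. The octamer ATGCAAAT, a motif of B cell promoters, was in 1.5% of the windows of genes called higher, 1.7% of those called lower and 2.0% of all. The shares describe letters, and binding was not measured.

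Matrix metalloproteinases cut collagens and other matrix proteins. Of 25 metalloproteinases and inhibitors measured 8 were higher and 1 was lower in acute colitis, with a median difference of 0.330. Mmp13, a stromal collagenase, was at 7.75, 11.27, 9.90 and 8.11 in acute colitis and at 8.18, 6.07, 6.66, 6.23 and 7.05 after 2 cycles. Arrays B2 and C3 lay just below the highest 2 cycles array, D4 (5.35-fold, adjusted p = 0.00228). Mmp3, stromelysin-1, was at 6.51, 10.88, 8.87 and 7.82 against 7.38, 5.56, 6.05, 6.35 and 6.22 (4.62-fold, adjusted p = 0.00694). The inhibitor Timp1 was 2.54-fold higher (adjusted p = 0.0149), while Timp4 was lower at 5.56 ± 0.10 (SD, n = 4) against 7.05 ± 0.32 (n = 5) with no overlap (adjusted p = 0.000716); both inhibitors were singled out after their values were seen. The count called higher was 3 without B3, 9 without B2 and 0 with only the 2 groups fitted.

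Several genes outside these lists were among the largest that did not overlap. Ak4, a mitochondrial adenylate kinase, was at 9.63, 10.52, 10.16 and 10.54 in acute colitis and at 7.59, 7.83, 8.77, 7.38 and 7.98 after 2 cycles. It was 4.93-fold higher (adjusted p = 1.6e-05), a second Ak4 probe set was 3.08-fold higher (adjusted p = 1.27e-05), and the 2 cycles mean of 7.91 was close to the control mean of 7.88. Ereg, a ligand of the EGF receptor, was 3.57-fold higher (adjusted p = 0.000306) and was the 1 gene called among 7 such ligands. Ifi205, an interferon-inducible protein, was 3.67-fold higher (adjusted p = 0.00496), and the uncharacterised gene 2210407C18Rik was 4.18-fold higher (adjusted p = 0.000913). The calls of Ereg and Ifi205 were lost with only the 2 groups fitted and within the low arrays. The Ifi205 difference of 1.88 was 1.15 without B3.

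2 of the largest rises were of transporters that carry bile acids across the cells of the terminal ileum. Slc10a2, the apical bile acid transporter, was at 7.61, 7.90, 5.88 and 5.90 in acute colitis and at 4.80, 4.82, 4.59, 4.80 and 4.40 after 2 cycles. The acute arrays all lay above, and the 2 with low Hoxb13 were the highest; the difference was 2.94 within the low arrays and 1.29 within the high arrays (4.41-fold in all, adjusted p = 0.0064). Slc51b, a subunit of the basolateral exporter, was at 9.78, 10.13, 8.59 and 9.32 against 7.14, 7.57, 8.20, 7.18 and 7.31 (3.93-fold, adjusted p = 5.26e-05). Its difference was 2.60 within the low and 1.39 within the high arrays. Nr1h4, the bile acid receptor FXR, noted after its values were seen, was 2.02-fold higher (adjusted p = 0.000126) at 8.67, 8.73, 7.70 and 8.36 against 7.28 to 7.44. Its difference was 1.34 within the low and 0.687 within the high arrays. Of 11 small intestine genes none was called in either direction, and the defining markers Lct and Sis were at 5.59 and 4.17 in acute colitis, 5.65 and 3.90 after 2 cycles and 5.72 and 4.12 in controls.

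**Figure D2:**
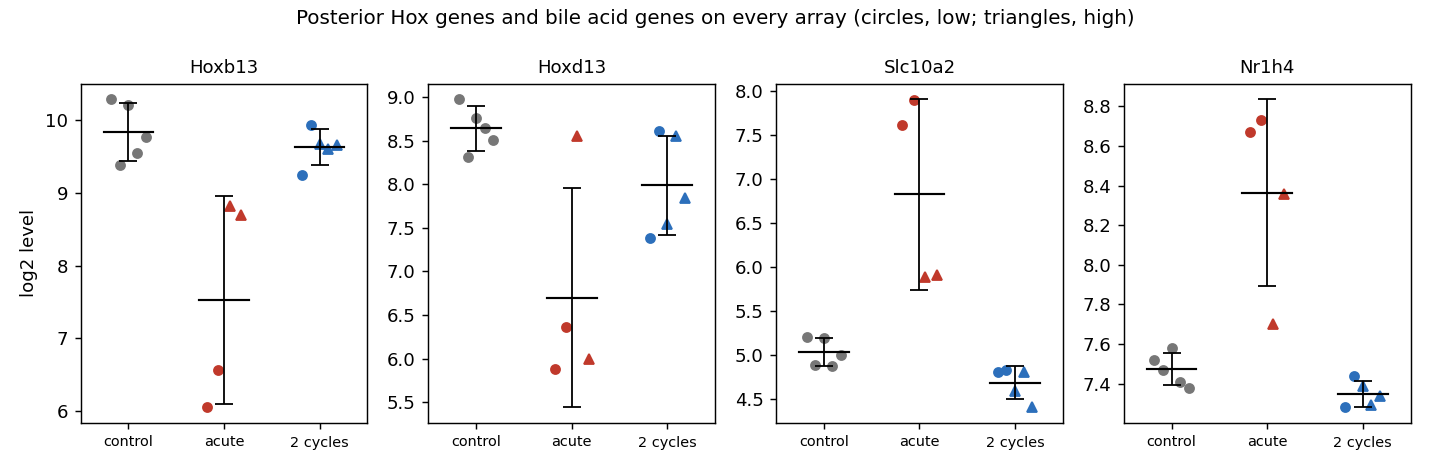
Log2 level of 2 posterior Hox genes and 2 bile acid genes on every array of control, acute colitis and 2 cycles; circles are low and triangles high arrays, and the line and bar are the mean and SD. Arrays B2 and B3 (acute, circles) had the lowest Hoxb13 and the highest Slc10a2 and Nr1h4 values.

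Cell cycle genes moved together but by small amounts. All 28 measured had a higher mean in acute colitis, with a median difference of 0.638, and 22 passed an adjusted p under 0.05, but only 2 also passed the fold of 2. Rrm2, a subunit of the enzyme that makes deoxynucleotides, was at 8.21, 8.83, 9.40 and 8.81 against 7.58, 7.32, 7.57, 7.75 and 7.87 (2.28-fold, adjusted p = 6.31e-05). Plk1, a mitotic kinase, was 2.00-fold higher (adjusted p = 0.00258) and its call was lost in 9 of the 21 other fits. The count of 2 was 0 without B4, 1 without C3, D4 or D5, 3 without B3 and 4 without B2. For Rrm2 and Plk1 the 2 cycles means of 7.62 and 8.09 were close to the control means of 7.54 and 8.16. No gene of the list of 17 crypt stem cell and Wnt target genes was called, and 3 were lower at an adjusted p under 0.05 alone.

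Probe sets of immunoglobulin genes had a median difference larger in size than that of any gene list described here. Of 34 with an immunoglobulin symbol 31 were lower in acute colitis than after 2 cycles, none was higher, and the median difference was -3.05. For 30 of the 31 the control mean lay between the 2 groups, and 28 were called higher after 2 cycles than in controls. An Ighm probe set, for the heavy chain of IgM, was at 4.65, 6.77, 5.50 and 5.79 in acute colitis and at 10.84, 9.40, 9.92, 10.38 and 10.60 after 2 cycles. The groups stood 23.4-fold apart (adjusted p = 6.31e-07), and controls were at 7.63 between them. Of the other Ighm probe sets 1 was 5.02-fold lower without overlap (adjusted p = 1.8e-07) and 1 was 3.78-fold lower with overlapping arrays (adjusted p = 0.0166). For Igha, the heavy chain of IgA, a probe set was at 6.42, 8.67, 7.16 and 7.48 against 11.02, 10.62, 11.06, 10.47 and 10.61 (10-fold, adjusted p = 1.12e-06), with controls at 7.68, near acute colitis. Immunoglobulin genes are a family of near-identical copies, so which member a probe set reads is uncertain. A probe set listed as Adck1 differed by -3.86 (adjusted p = 2.17e-06), but its listed accessions are not RefSeq transcripts and another Adck1 probe set differed by 0.0191, so its gene is uncertain.

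Plasma cells and B cells moved in the same direction. Of 15 plasma cell genes 5 were lower in acute colitis and none was higher, and the count was 5 in each of the 21 other fits. Jchain, the joining chain of dimeric IgA, was at 7.18, 8.60, 7.44 and 7.87 in acute colitis and at 11.27, 11, 11.31, 10.89 and 11.56 after 2 cycles. It was 10.8-fold lower (adjusted p = 8.17e-10); it also stood below controls in acute colitis (by 1.48, adjusted p = 4.48e-05) and 1.96 above controls after 2 cycles (adjusted p = 7.46e-06). Derl3, which serves protein quality control in secretory cells, was 3.01-fold lower (adjusted p = 2.89e-06) and Irf4, a transcription factor of plasma cells, 2.77-fold lower (adjusted p = 7.11e-07). Both were close to controls in acute colitis, differing by -0.058 and -0.145, and above controls after 2 cycles.

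Of 21 B cell genes 13 were lower in acute colitis, none was higher, and the median difference was -1.10; the values of 19 of the 21 did not overlap. Cd79a, a signalling chain of the B cell receptor, was at 4.36, 5.62, 6.48 and 4.64 in acute colitis and at 7.69, 6.76, 7.32, 7.01 and 7.11 after 2 cycles. It was 3.74-fold lower (adjusted p = 0.00622), with controls at 5.20 ± 0.71 (SD, n = 5), at the acute level. Ms4a1 (CD20) and Cd79b were 3.73-fold (adjusted p = 0.0133) and 3.38-fold (adjusted p = 0.00323) lower, and the Ms4a1 call was lost without C3. None of the 21 differed between acute colitis and controls by the call used here, and 15 were called higher after 2 cycles than in controls. The count of 13 was 6 without C3, 8 without B2 or D4 and 15 without B3, and 1 within the low as within the high arrays. Follicle genes went along: 3 of 13 were lower, namely Cr2, the complement receptor of B cells and follicular dendritic cells (3.23-fold, adjusted p = 0.0103), Mfge8, an adaptor for apoptotic cells (2.38-fold, adjusted p = 0.000515), and Glycam1, an L-selectin ligand of high endothelial venules (1.82 lower on the log2 scale, adjusted p = 0.00798). Glycam1 spread from 5.85 to 8 over the 2 cycles arrays and from 4.89 to 5.19 over the acute arrays.

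Of 9 genes of antigen presentation by MHC class II 2 were lower, H2-Ob (adjusted p = 0.00393) and H2-Eb2 (adjusted p = 0.00353), of which H2-Ob is known from B cells. All 9 had lower means in acute colitis, with a median of -0.351, and all 9 were called higher after 2 cycles than in controls. In acute colitis 5 of them were also called above controls, by between 1.33 (H2-Eb1) and 1.69 (H2-Ab1). None of 28 T and NK cell genes was called (median -0.112), and 3 were lower and 1 was higher at an adjusted p under 0.05 alone. Cd4 was at 6.50 ± 0.42 (SD, n = 4) against 7.35 ± 0.17 (n = 5), a difference that passed the p but not the fold. Mast cell (12) and eosinophil (6) genes were not called.

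**Figure D3:**
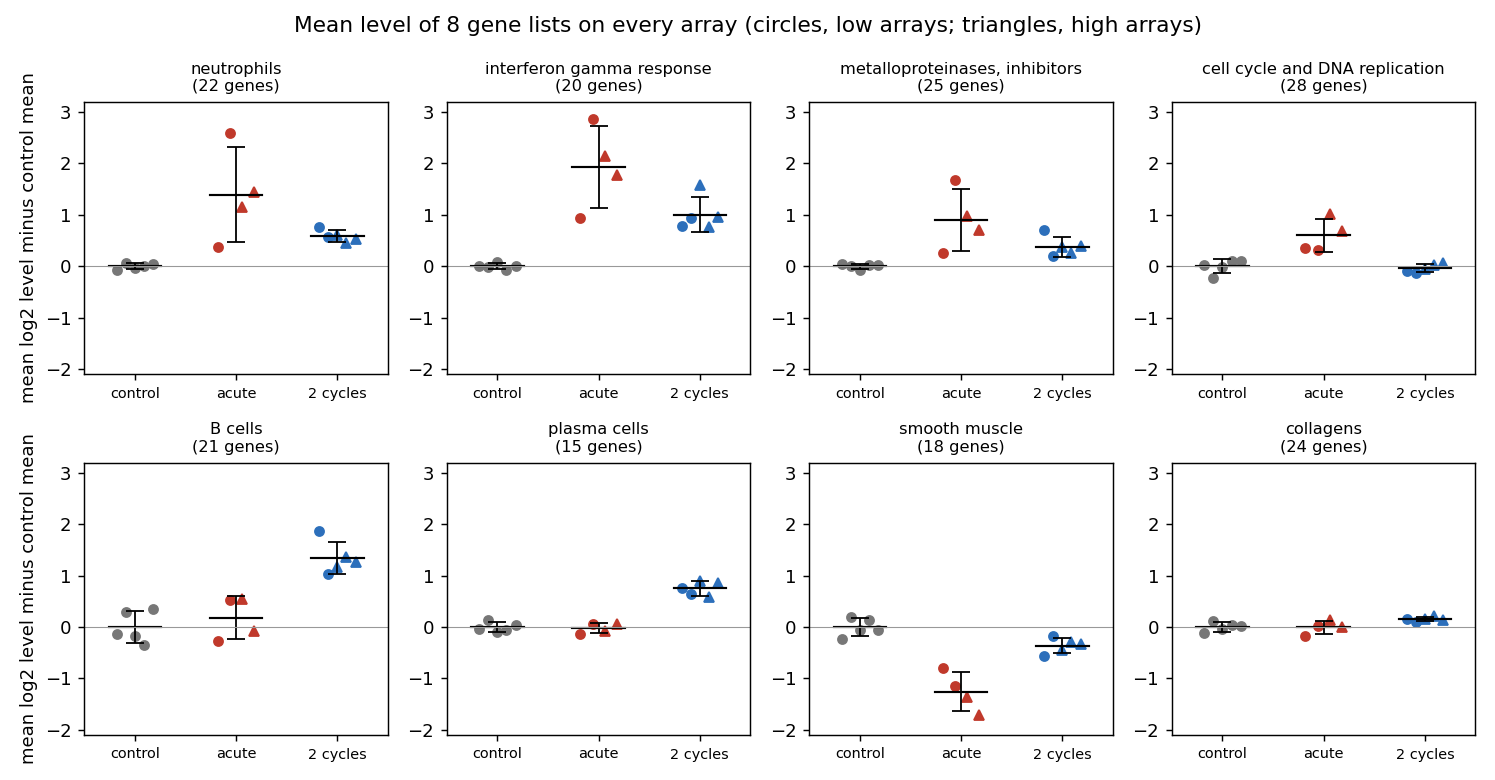
Mean log2 level of the measured genes of 8 lists on each array, minus the mean of the control arrays; circles are low and triangles high arrays, and the line and bar are the mean and SD of 5 control, 4 acute and 5 2 cycles arrays. B3, B4 and C3 lie above all 2 cycles arrays for neutrophils and interferon gamma response while B2 does not, C3 is level with D4 for metalloproteinases, and all 4 acute arrays lie above for the cell cycle and below for B cells, plasma cells and smooth muscle.

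The surface colonocyte absorbs water and salt at the top of the crypt. Of 29 absorptive colonocyte genes 3 were lower in acute colitis and none was higher, with a median of -0.302. The median was 0.0462 within the low and -0.691 within the high arrays, and the count was 5 without B2. Mptx1, a pentraxin of the mucosa, was at 4.22, 4.36, 6.30 and 5.07 in acute colitis and at 9.84, 10.35, 9.07, 10.41 and 10.03 after 2 cycles. The difference of -4.95 ± 0.73 (SE), or 31.0-fold, was the largest fall of a named gene (adjusted p = 7.34e-05), and controls were at 11.44. It was -5.80 within the low and -4.15 within the high arrays. Tgm3, a transglutaminase, was at 7.04, 6.45, 9.44 and 8.76 against 11.13 to 11.60, lowest on the 2 arrays with low Hoxb13 (difference -4.62 within the low and -2.32 within the high arrays, adjusted p = 0.000835). Aqp8, a water channel, was 2.76-fold lower (adjusted p = 0.0117), by -0.733 within the low and -2.18 within the high arrays, and its call was lost without B4. Other genes of the list did not follow: Car1 was at 12.66 ± 0.78 (SD, n = 4) against 12.24 ± 0.11 (n = 5) and Krt20 at 11.73 ± 0.30 against 11.37 ± 0.26, neither of which passed.

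The other large falls were below controls in acute colitis, and after 2 cycles none of these genes differed from controls by the call used here. Ctse, an aspartic protease, was at 7.78, 5.76, 7.44 and 8.91 in acute colitis and at 10.51, 10.74, 10.69, 10.45 and 10.64 after 2 cycles (8.78-fold, adjusted p = 3.69e-06), with controls at 10.25. Sval1 was 7.13-fold lower (adjusted p = 8.09e-05). Atp12a, the non-gastric proton-potassium pump of the distal colon, was at 5.14, 6.52, 8.88 and 6.4 against 9.09 to 9.62 (6.21-fold, adjusted p = 0.0223). Its difference was -3.72 within the low and -1.61 within the high arrays, and its call was lost within either set and without B2, B3 or C3. Eno3, an enolase, was 5.63-fold lower (adjusted p = 2.92e-05), and Nxpe2, Casp14, Spink1 and Cyp2c68 were lower by between 2.36 and 2.68 on the log2 scale. Of 26 xenobiotic metabolism genes 2 were lower, Cyp2f2 (adjusted p = 0.000881) and Adh1 (adjusted p = 0.0015). Both calls were lost within the low arrays, and that of Adh1 also with only the 2 groups fitted. The list median was 0.149 within the low and -0.882 within the high arrays, with 0 and 8 genes called lower there, and 5 were called without B2. The sign of this median therefore differed between the array sets, and the difference was not tested. Acsm3, an acyl-CoA synthetase, was the 1 gene called of 14 for butyrate oxidation and ketogenesis (2.60-fold lower, adjusted p = 0.00175). Its difference of -1.38 was -0.892 without B3, where its call was lost, as it was within either array set and with only the 2 groups fitted.

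Goblet cells secrete the mucus layer. Of 16 goblet cell genes 2 were lower and none was higher, with 15 of 16 means below those of 2 cycles and a median of -0.592. Clca1, a protease of mucus, was at 11.74, 11.17, 10.15 and 11.68 in acute colitis and at 12.83, 12.82, 12.73, 12.69 and 13.05 after 2 cycles, without overlap (3.11-fold, adjusted p = 3.09e-06). Capn9, a calpain of mucous cells, was 2.11-fold lower (adjusted p = 0.00145), whereas Muc2, the main mucin, was at 12.99 ± 0.42 against 13.27 ± 0.10 and did not pass. The count was 5 without B2 or C3, 4 without D4 and 1 without B3, B4 or D5. Insl5, a hormone of colonic L cells, was the 1 enteroendocrine gene called of 11 (2.87-fold lower, adjusted p = 0.00491), by -1.99 within the low and -1.02 within the high arrays. Clu, called within the fetal-like epithelium list of 13, was 2.67-fold lower (adjusted p = 0.00601), at 7.69 in acute colitis, 9.10 after 2 cycles and 7.65 in controls. The Clu call was lost with only the 2 groups fitted and within either array set.

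Smooth muscle genes code for the contractile apparatus of the muscle coats. Of 18 measured 7 were lower in acute colitis and none was higher, with 15 lower at an adjusted p under 0.05 alone and a median of -0.861. Actg2, the enteric smooth muscle actin, was at 10.11, 9.42, 8.96 and 9 in acute colitis and at 10.82, 11.27, 11.20, 11.21 and 11.01 after 2 cycles. The groups did not overlap (3.31-fold, adjusted p = 3.54e-07), and controls were at 11.29. Cnn1, calponin, and Synm, an intermediate filament protein, were 3.01-fold (adjusted p = 9.12e-07) and 2.87-fold (adjusted p = 3.09e-06) lower. Averaged over the list, the acute arrays were at 8.58, 8.24, 8.02 and 7.67 and the 2 cycles arrays between 8.82 and 9.22. How much muscle coat each piece of colon held is not stated in the labels, and its part in the difference was not tested.

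The RNA of the proteins the study stained to describe remodelling gave no call. The stains showed protein and its place in the tissue, which these values do not measure. Acta2, smooth muscle actin, was at 11.71, 11.44, 11.17 and 11.07 in acute colitis and at 12.04, 12.21, 12.13, 12.24 and 12.20 after 2 cycles. This difference of -0.815 ± 0.097 (SE) did not overlap and passed the p but not the fold of 2 (adjusted p = 4.87e-06). Col1a1 and Col3a1, the main fibrillar collagens, differed by -0.31 and -0.06, Tnc (tenascin C) by -0.04 and Vim (vimentin) by -0.18, and none passed the p. Col1a1 was above controls by 0.628 after 2 cycles (adjusted p = 0.000953) and by 0.316 in acute colitis (adjusted p = 0.0546). After 2 cycles the other stained genes did not pass the p against controls. Of 24 collagen genes none was called (median -0.0732), 6 were lower at an adjusted p under 0.05 alone and none was higher. Of 34 other matrix genes 4 were lower, among them Ogn, a small proteoglycan, at 8.43, 8.28, 6.74 and 7.63 against 9.46 to 9.94 (adjusted p = 1.27e-05). Fibronectin (Fn1) was 2.05-fold lower (adjusted p = 1.05e-06) and stood below controls in acute colitis (by 0.592, adjusted p = 0.000306) and above them after 2 cycles (by 0.445, adjusted p = 0.0109). Mfap4, an elastic fibre protein, followed Fn1 (2.48-fold, adjusted p = 1.86e-06). Hmcn1, hemicentin 1, noted after its values were seen, has 77 probe sets here, of which 39 were lower with a median of -1.01 over all 77. None of 22 fibroblast, 19 enteric neuron and glia, 18 endothelial, 16 immediate early and 14 ER stress genes was called. At an adjusted p under 0.05 alone, 8 fibroblast genes were lower and none was higher, and 7 of the 22 were lower without overlap. By the same p, 3 neuron and glia genes were higher, 2 endothelial genes lower and 2 immediate early genes higher. Of the ER stress genes 5 were higher and 1 was lower by it.

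**Figure D4:**
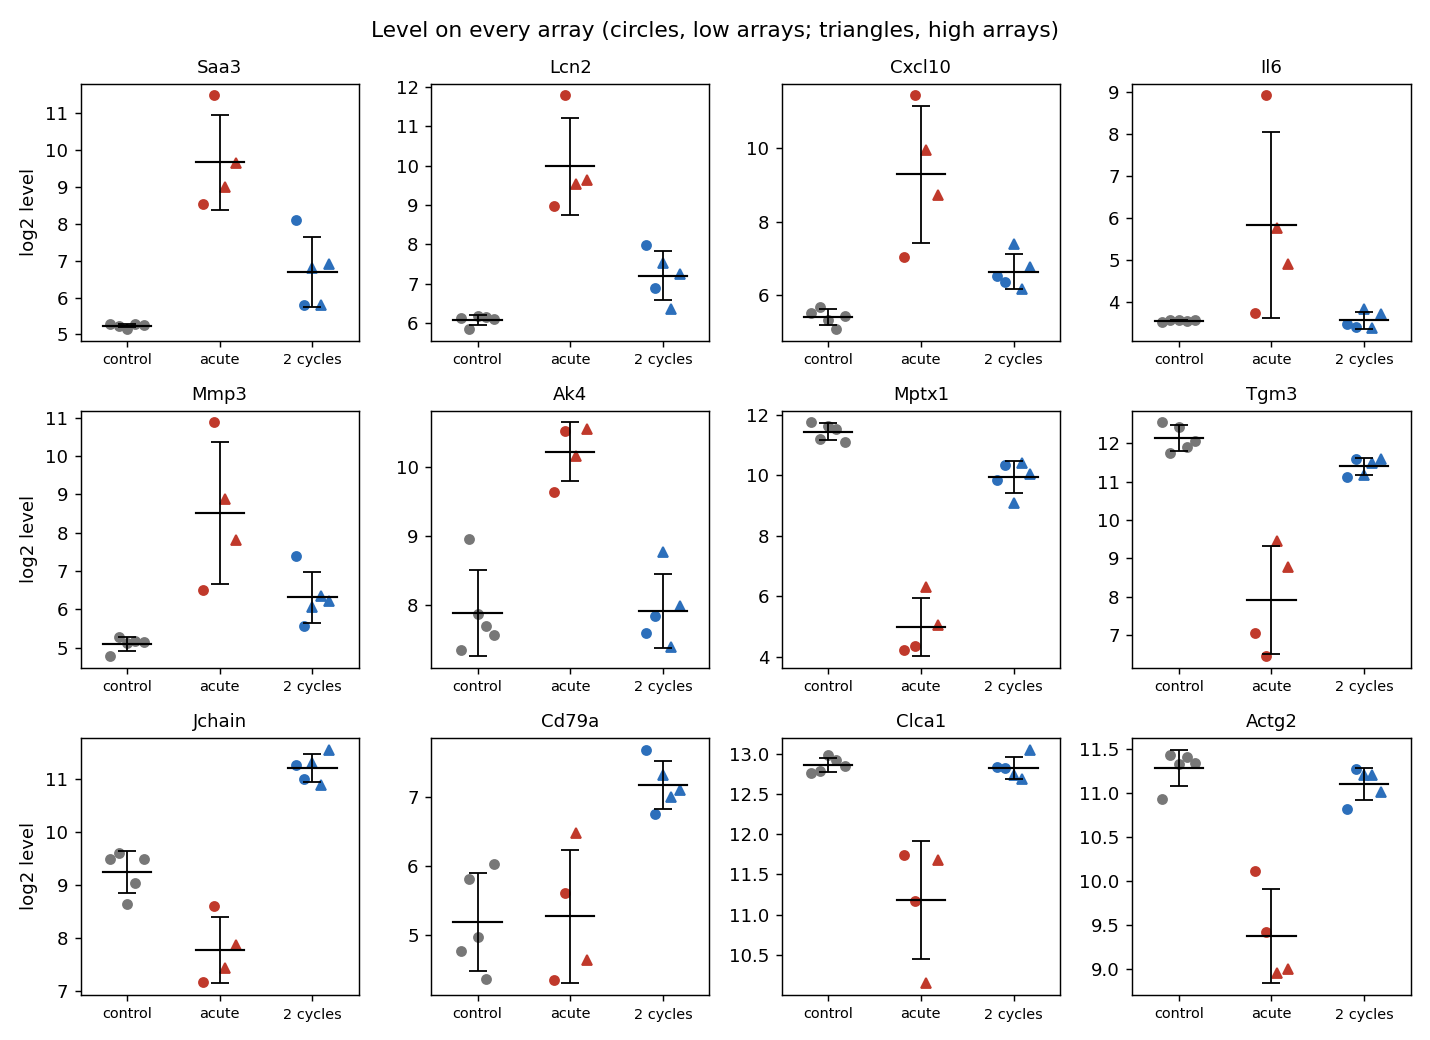
Log2 level of 12 genes on every array of control, acute colitis and 2 cycles; circles are low and triangles high arrays, and the line and bar are the mean and SD of 5, 4 and 5 arrays. Saa3, Lcn2, Ak4 and the 6 genes from Mptx1 to Actg2 separate the acute from the 2 cycles arrays without overlap, while Cxcl10, Il6 and Mmp3 overlap through B2.

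**Figure D5:**
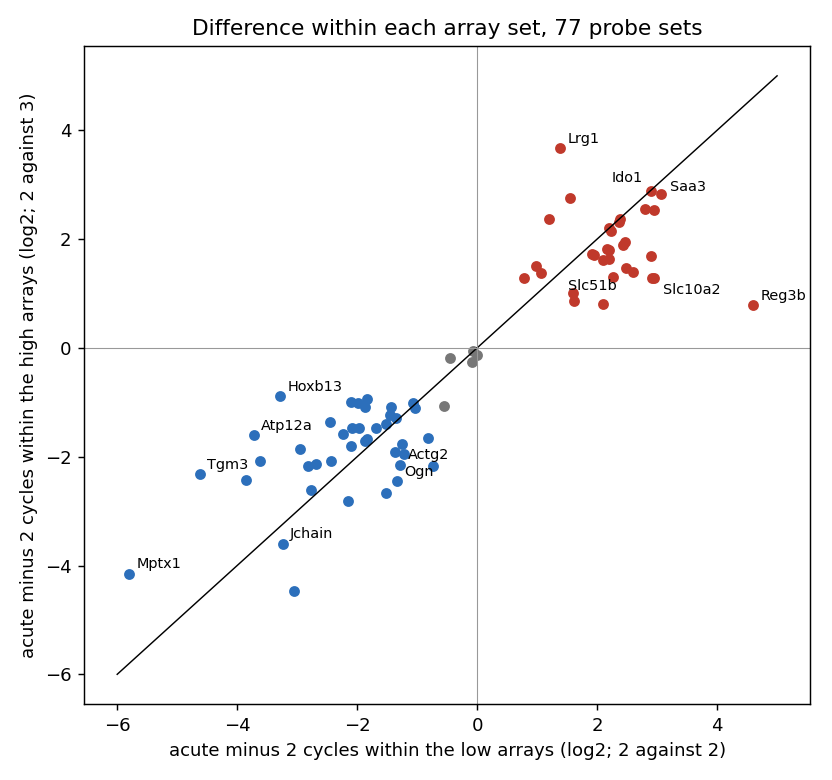
Acute colitis minus 2 cycles on the log2 scale within the low arrays (2 against 2, x axis) and within the high arrays (2 against 3, y axis) for the 77 named probe sets, red where called higher, blue where called lower and grey where not called. All called probe sets have the same sign in both sets, Reg3b, Slc10a2, Tgm3 and Hoxb13 being larger within the low arrays and Lrg1 within the high arrays.

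The 2 cycles group was also set against its neighbours in the course of repeated colitis. Against 1 cycle, limma called 0 probe sets (0%) and against 3 cycles 0 (0%), where 2056 and 4155 had an unadjusted p under 0.05. For the 385 probe sets called between acute colitis and 2 cycles, the median size of the difference was 1.43 there, 0.289 between 2 cycles and 1 cycle and 0.273 between 2 cycles and 3 cycles; these probe sets were chosen on the contrast of acute colitis with 2 cycles. Jchain was at 11 after 1 cycle, 11.21 after 2 and 11.04 after 3 cycles. Mptx1 was at 8.94, 9.94 and 8.37 and Il6 at 3.73, 3.56 and 3.77 in the same order. Not all of the 385 were as level, and the largest difference between 2 cycles and 1 cycle among them was 2.79 in size. Reg3b was at 11.04 after 1 cycle, near its acute mean of 10.93, and at 8.25 after 2 cycles. For 2210407C18Rik the means were 9.18 after 1 cycle, 9.38 in acute colitis and 7.32 after 2 cycles. A p that misses the threshold does not show that the cycles were alike.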

How the data were processed

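Total RNA of colon pieces was hybridised to Affymetrix Mouse Gene 1.0 ST arrays, 1 mouse per array. The authors normalised the scans by RMA in R 2.12.2 and deposited 1 log2 value per probe set and array; depth has no meaning here, and the number of arrays limits the precision. The values were used unchanged. Symbols come from the platform annotation (21789 probe sets have 1, 1621 several and 12101 none). Limma 3.58.1 in R 4.3.3 fitted 1 mean per group over all 29 arrays, since the methods name limma without its design; Benjamini-Hochberg adjustment ran over the whole table, and probe sets were called at a fold above 2 with an adjusted p under 0.05. P-values and SEs rest on 1 spread per probe set, estimated over all 29 arrays. For probe sets called higher the median SD was 1.17 in acute colitis and 0.307 after 2 cycles. There the SEs and p-values can understate the spread of the acute mice. The text names the 12 largest non-overlapping rises and falls with 1 symbol outside immunoglobulins, up to 3 called members of each of 45 gene lists (brightest probe set per gene; 757 of 833 list genes were measured) and 5 stained proteins. Members and lists were chosen with earlier results of these data known. Each mouse is in 1 group, so no pairing exists. The fit was tested on simulated data with normal noise of the same SD in every group. That test cannot show how the fit behaves where the acute mice spread more. Alternatives were array set, letter block, array weights, filters, scalings, thresholds and each array left out. The methods describe 5 animals per group on the arrays, and 4 arrays of acute colitis were analysed here.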

Additional observations from a re-analysis of the deposited data

Results flagged for a closer look

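In 154 groups of 4 or 5 arrays (77 probe sets in acute colitis and 2 cycles), 4 had an array standing apart from the rest by Dixon's test, where chance flags about 1 in 20. Ido1 was at 8.70 on acute array B2, with the next at 10.24. Chil3 was at 8.59 on acute array B3, with the next at 5.19. Irf4 was at 5 on acute array B2, with the next at 5.26. Clu was at 10.32 on array D4 of 2 cycles, with the next at 9.01.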

How the results depend on the processing

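Of 106 probe sets called higher and 279 called lower in acute colitis, all kept their direction in the 19 other fits that tested all of them. These probe sets were chosen for a fold above 2 on the same arrays, so the kept direction is no independent support. The fit of only the 2 groups and the fit with another prior cannot change the direction. The count called higher was 25 with only the 2 groups fitted, 23 with array set added to that fit, 37 within the low arrays, 1703 with no fold threshold and 0 by treat against a fold of 2; leaving out 1 array gave 55 (without B3) to 219 (without B2). The count called lower was 104 within the low arrays, 1598 with no fold threshold and 52 by treat; leaving out 1 array gave 252 to 329. The fits with other filters, scalings, priors, weights or a block for the label letter moved neither count by over 1.5 times. Between 2 cycles and 1 cycle, 2 probe sets were called with only those groups fitted, and 0 to 2 with 1 array of 2 cycles left out; between 2 and 3 cycles the count was 0 throughout. Of the named genes only Tnc and Col3a1, neither of them called, changed sign: Tnc differed by 0.00559 within the low arrays and by -0.264 to 0.0768 with 1 array left out, and Col3a1 by -0.192 to 0.077 with 1 array left out. The cause of these changes was not tested. The 2-group and within-set fits used fewer arrays and also estimated the spread from those arrays alone. No paired analysis was possible because each label letter and number belongs to 1 mouse. The 4 acute arrays, their spread and the unknown meaning of the array sets limit every count.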
